A study of Mus musculus with 8 samples.

Results

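Prostaglandin synthesis and reception genes were followed in PyMT-1099 cells, a breast cancer line of mouse mammary tumours driven by polyoma middle T. The set holds 10 of the 55450 gene identifiers in the count files, chosen by symbol. It comprises the phospholipase gene Pla2g4a, the cyclooxygenase genes Ptgs1 and Ptgs2, the prostaglandin E synthase genes Ptges, Ptges2 and Ptges3, the receptor genes Ptger2 and Ptger4, and the breakdown genes Hpgd and Ptgr1. Of these, 6 passed the filter on low counts and 4 were below detection (Ptges, Hpgd, Ptgr1 and Ptger2). The symbols were selected on earlier results of these data, and which levels or changes of these transcripts were used is not recorded, so the tests describe sizes against the replicate spread and give no independent evidence for the choice.

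The 8 libraries of polyadenylated RNA form 4 groups of 2. AGPS knockout cells and parental cells, labelled WT, were each either treated with TGF-β (2 ng/ml, 10 days) or left untreated. AGPS is a peroxisomal enzyme of ether lipid synthesis, and TGF-β is a cytokine that drives epithelial to mesenchymal transition in such cells. Both lines share the PyMT-1099 background and a culture medium of high glucose DMEM with serum, and whether the knockout cells are 1 clone is not given in the sources used here.

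Prostaglandins are lipid signals made from arachidonic acid. A phospholipase A2 releases the fatty acid from membranes, a cyclooxygenase turns it into PGH2, and terminal synthases turn PGH2 into PGE2 and related compounds. PGE2 then acts on EP receptors, of which EP2 and EP4 raise cyclic AMP, and is ended by uptake and oxidation. In mammary tumours the inducible cyclooxygenase COX2 and its product PGE2 are known for roles in invasion, angiogenesis and immune evasion.

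Library totals ran from 17007268 to 21311831 counts, and across genes, which are not independent replicates, the 2 libraries of each group had a Pearson's r of 0.9911 to 0.9938. Agps itself stood at 29.3 to 43.9 CPM in the 4 knockout libraries, against 264.8 to 357.2 CPM in the 4 parental libraries (CPM is the count scaled to library size, after TMM normalization). Of 9 epithelial markers, the keratin genes Krt8 and Krt18 and the cadherin gene Cdh1 were present, while Epcam and Cldn7 had 0 counts in all 8 libraries. Epithelial markers summed to 3250 to 3460 CPM in treated and 4190 to 4510 CPM in untreated knockout libraries, and to 3130 to 3330 CPM in treated and 5810 to 6400 CPM in untreated parental libraries. In knockout cells the lower sum came from Krt19, at 149.3 CPM on average in treated and 1168 CPM in untreated cells, and Cdh1, at 52.3 CPM in treated and 302.0 CPM in untreated cells. Krt8 averaged 887.2 CPM in treated and 796.2 CPM in untreated knockout cells, and Krt18 averaged 2252 CPM in treated and 2077 CPM in untreated ones. In parental cells each of these genes was lower with TGF-β. There Krt8 averaged 813.1 CPM in treated and 1142 CPM in untreated cells, and Krt18 1927 and 2592 CPM. Krt19 averaged 351.9 and 1723 CPM there, and Cdh1 133.8 and 641.9 CPM. Krt14 was higher with TGF-β, at 10.1 and 0.305 CPM in knockout and 5.10 and 0.360 CPM in parental cells. The labels do not tell whether replicates are separate cultures, so p-values reflect the spread between these libraries alone, which may be technical. In bulk RNA, fewer cells of a type and less RNA per cell cannot be told apart.

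Promoter sequences of the 4 members whose transcripts moved most are shown first, since 2 of them, Ptgs2 and Pla2g4a, start 138741 bases apart on chromosome 1 and both rose with TGF-β. Each window runs from 250 bases before to 50 bases after the annotated start (RefSeq, GRCm38.p6), 5′ to 3′ on the strand of the gene, and capitals mark matches to the motifs searched. Ptgs2 is at chr1:150099781-150100080 on the plus strand and Pla2g4a at chr1:149961241-149961540 on the minus strand, the one of 2 listed Pla2g4a windows that holds the annotated gene start. Ptger4 is at chr15:5244138-5244437 on the minus strand and Ptgs1 at chr2:36230176-36230475 on the plus strand.
Ptgs2: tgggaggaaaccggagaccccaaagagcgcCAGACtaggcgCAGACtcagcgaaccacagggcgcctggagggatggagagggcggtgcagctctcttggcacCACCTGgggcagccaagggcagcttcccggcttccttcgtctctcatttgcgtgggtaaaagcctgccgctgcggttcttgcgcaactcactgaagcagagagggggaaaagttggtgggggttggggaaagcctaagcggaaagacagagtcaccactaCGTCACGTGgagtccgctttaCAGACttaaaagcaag
Pla2g4a: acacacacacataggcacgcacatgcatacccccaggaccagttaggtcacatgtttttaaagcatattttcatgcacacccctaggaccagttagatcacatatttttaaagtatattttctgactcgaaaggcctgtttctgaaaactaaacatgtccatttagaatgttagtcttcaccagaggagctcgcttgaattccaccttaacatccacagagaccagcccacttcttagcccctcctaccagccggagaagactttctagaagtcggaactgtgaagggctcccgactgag
Ptger4: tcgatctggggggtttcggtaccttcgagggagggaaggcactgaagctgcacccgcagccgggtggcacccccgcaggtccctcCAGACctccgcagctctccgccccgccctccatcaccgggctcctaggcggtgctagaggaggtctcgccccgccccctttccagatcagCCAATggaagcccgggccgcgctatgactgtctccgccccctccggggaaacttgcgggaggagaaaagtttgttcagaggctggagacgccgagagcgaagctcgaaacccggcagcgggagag
Ptgs1: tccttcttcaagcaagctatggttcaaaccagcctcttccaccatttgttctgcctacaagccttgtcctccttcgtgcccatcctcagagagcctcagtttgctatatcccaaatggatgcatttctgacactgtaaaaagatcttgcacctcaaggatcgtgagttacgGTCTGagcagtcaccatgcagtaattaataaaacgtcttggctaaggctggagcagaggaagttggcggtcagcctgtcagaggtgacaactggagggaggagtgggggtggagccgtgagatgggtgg
The motifs were searched on both strands. The Ptgs2 window holds the core of a cyclic AMP response element (TGACG, here as CGTCA at bases 13 to 17 after the start) that overlaps an E-box (CACGTG, bases 16 to 21), a Snail and ZEB type E2 box (CAGGTG, here as CACCTG) and 3 CAGA boxes (CAGAC). Of 32851 mouse promoter windows of the same length, 20.8% hold this core, 7.15% the E-box, 20.2% the E2 box and 49.6% at least 1 CAGA box. The share of windows with 3 CAGA boxes was not counted. The Ptger4 window holds a CAGA box and a CCAAT box (CCAAT, 37.4% of windows), and the Ptgs1 window a CAGA box. In the Pla2g4a window none of these letters, nor a TATA box (TATAAA, 13.6% of windows) or AP-1 site (TGANTCA, 7.81%), was found. The 4 windows also differ in base composition, with 59.3% G and C in Ptgs2, 45.3% in Pla2g4a, 67% in Ptger4 and 50.7% in Ptgs1, against a median of 52.7% over all windows. A match describes these letters only and is no evidence that a factor binds there.

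The transcript of Pla2g4a, the phospholipase gene of the set, was higher with TGF-β in both lines. Pla2g4a encodes cytosolic phospholipase A2α, which frees arachidonic acid from membrane lipids (ENSMUSG00000056220, GRCm38 chromosome 1, 149829618 to 149961290). In knockout cells it stood at 54.9 and 62.9 CPM with TGF-β, against 12.1 and 19.7 CPM untreated. In parental cells it stood at 47.3 and 41.9 CPM with TGF-β, against 15.3 and 24.0 CPM untreated. Every treated library was thus above every untreated one. The log2 fold change was 1.89 (standard error 0.23, adjusted p = 3.78e-05 in edgeR's quasi-likelihood test) in knockout cells and 1.19 (standard error 0.22, adjusted p = 0.00126) in parental cells. The difference between these changes, 0.70 (standard error 0.32), did not pass (adjusted p = 0.352), nor did knockout against parental cells with TGF-β (0.40, adjusted p = 0.238) or untreated (-0.30, adjusted p = 0.468). With no filter on low counts the difference passed (adjusted p = 0.00971), as did knockout against parental cells with TGF-β (adjusted p = 0.0234), which also passed from the treated libraries alone (adjusted p = 0.0105). Other phospholipase genes went both ways. Pla2g6 averaged 37.8 CPM in treated and 56.5 CPM in untreated parental cells, and 38.1 and 42.5 CPM in knockout cells, whose libraries overlapped. Pla2g15 averaged 21.6 CPM in treated and 12.2 CPM in untreated parental cells, and 16.9 and 7.25 CPM in knockout cells.

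**Figure D1:**
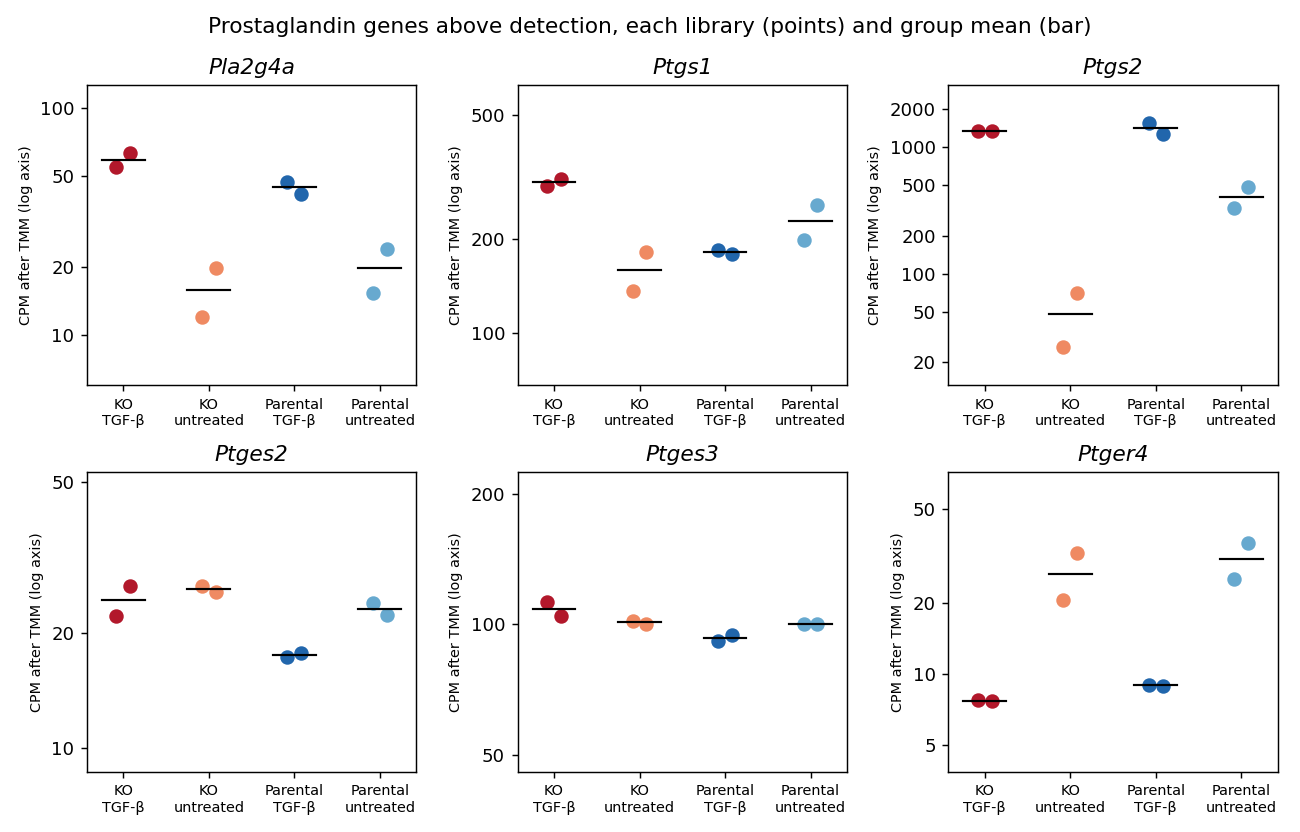
CPM after TMM scaling (log axis) of the 6 members above detection in each library (points) and the mean of each group of 2 (bars), with treated left of untreated and knockout left of parental cells. Ptgs2 sits at 1271 to 1565 CPM in the 4 treated libraries and spreads from 26.1 to 483.7 CPM in the untreated ones, while Ptges3 stays between 91.4 and 112.4 CPM.

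Of the cyclooxygenase genes, Ptgs2 rose with TGF-β in both lines and started from a far lower level in knockout cells. It encodes the inducible COX2 (ENSMUSG00000032487, chromosome 1, 150100031 to 150108227). It stood at 1352 and 1354 CPM in treated knockout cells, against 26.1 and 70.0 CPM in untreated knockout cells. Parental cells had 1565 and 1271 CPM with TGF-β, against 328.2 and 483.7 CPM untreated. The treated groups of the 2 lines overlap, untreated parental cells lie below both, and untreated knockout cells lie lowest. By CPM, 0.280% to 0.369% of tested genes stood at or above Ptgs2 in the 4 treated libraries, 24.0% and 44.6% in the untreated knockout libraries and 1.73% and 3.47% in the untreated parental libraries.

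With TGF-β, Ptgs2 rose 28.1-fold in knockout cells (log2 fold change 4.81, standard error 0.37, adjusted p = 1.06e-06) and 3.49-fold in parental cells (1.80, standard error 0.33, adjusted p = 0.000908). The larger change in knockout cells came with a lower untreated level. Untreated knockout cells had 8.43-fold less Ptgs2 than untreated parental cells (log2 fold change -3.08, standard error 0.35, adjusted p = 0.000184), a drop matched or passed by 0.847% of tested genes. With TGF-β the lines did not differ beyond the replicate spread (-0.07, standard error 0.31, adjusted p = 0.92). The difference between the TGF-β changes was 3.01 in log2 units (standard error 0.46, adjusted p = 0.00732).

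The untreated knockout replicates of Ptgs2 lay 2.68-fold apart, and of 4221 genes within 2-fold of its level in that group, 0% were as far apart (median 1.1-fold). Without replicate 2 of that group the log2 fold changes were 5.69 for TGF-β in knockout cells, -3.96 for untreated knockout against parental cells and 3.89 for the difference. Without replicate 1 they were 4.27, -2.54 and 2.47. Each passed in both cases, and over all left-out libraries the highest adjusted p of the difference was 0.0451. In both untreated groups replicate 2 was the higher library for Pla2g4a, Ptgs1, Ptgs2 and Ptger4, by 1.30-fold to 2.68-fold. In the treated groups these genes lay 1.00-fold to 1.23-fold apart. The part of this spread in the results was not tested.

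Ptgs1 encodes COX1, the cyclooxygenase that many tissues express without stimulation (ENSMUSG00000047250, chromosome 2, 36230426 to 36252272). It stood at 296.0 and 310.9 CPM in treated knockout cells, against 136.8 and 182.5 CPM in untreated knockout cells. Parental cells had 185.2 and 179.0 CPM with TGF-β, against 198.5 and 257.1 CPM untreated. Treated knockout cells were thus highest, and untreated knockout and treated parental cells overlapped. Ptgs1 rose with TGF-β in knockout cells (log2 fold change 0.93, standard error 0.14, adjusted p = 0.00027). In parental cells the change was -0.32 (standard error 0.14) and did not pass (adjusted p = 0.0889), although it did with no filter on low counts (adjusted p = 0.00394), from the parental libraries alone (adjusted p = 0.0441), with the replicate number as a block (adjusted p = 0.0317) and without untreated knockout replicate 1 (adjusted p = 0.032) or 2 (adjusted p = 0.0316) or untreated parental replicate 1 (adjusted p = 0.0124).

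Between the lines, Ptgs1 was higher in knockout than in parental cells with TGF-β (log2 fold change 0.74, standard error 0.14, adjusted p = 0.00422) and lower untreated (-0.51, standard error 0.14, adjusted p = 0.0333). The untreated call was lost with only the untreated libraries in the fit (adjusted p = 0.14), without untreated parental replicate 2 (adjusted p = 0.197) or untreated knockout replicate 1 (adjusted p = 0.187), and without any 1 of the 4 treated libraries (adjusted p = 0.0522 to 0.0642). The difference between the TGF-β changes was 1.25 (standard error 0.20, adjusted p = 0.00901), with an adjusted p of 0.0549 without treated knockout replicate 2.

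**Figure D2:**
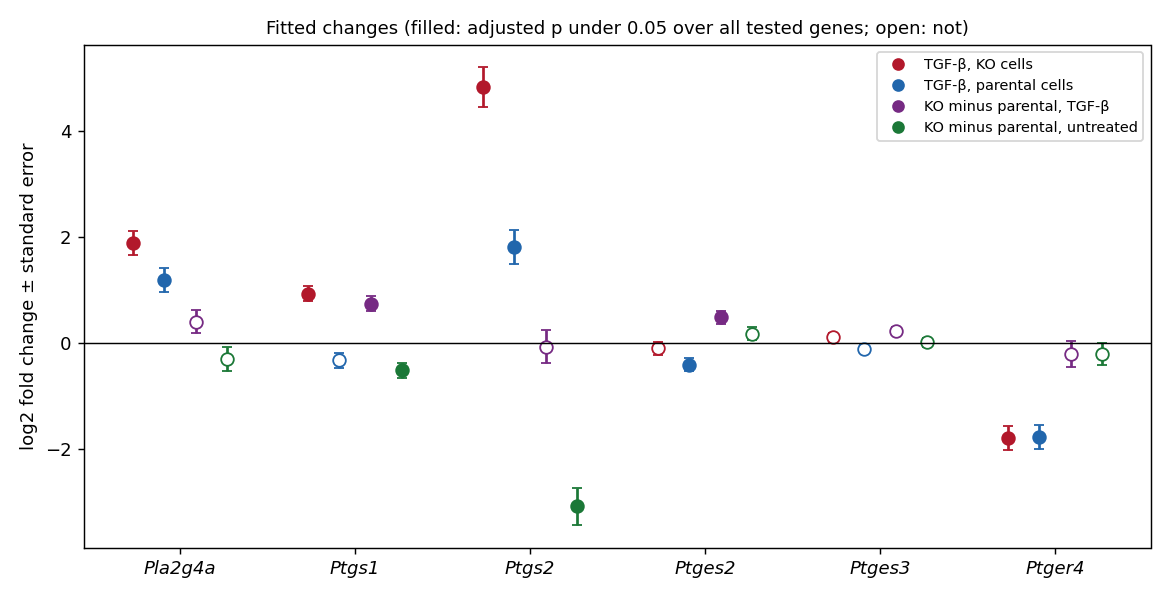
Fitted log2 fold changes (points) with standard errors (bars) of the 6 members in 4 comparisons: TGF-β over untreated in knockout and in parental cells, and knockout over parental cells with TGF-β and untreated. Filled points passed an adjusted p of 0.05 over all tested genes; Ptgs2 reaches 4.81 in knockout cells, and the 2 TGF-β points of Ptger4 lie at -1.79 and -1.77.

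Set side by side per exonic length (RPKM, CPM per 1000 exonic bases), Ptgs2 made up 79.5% and 78.7% of the summed level of both cyclooxygenase transcripts in treated knockout cells, against 13.9% and 24.5% in untreated knockout cells. The share was 87.8% and 85.8% in treated parental cells, against 58.4% and 61.5% in untreated parental cells. Ptgs1 was therefore the more abundant transcript in untreated knockout cells, and Ptgs2 in the other groups. The summed level was 371.3 and 375.7 RPKM in treated knockout cells, against 40.9 and 62.3 RPKM in untreated knockout cells. It was 389.5 and 323.6 RPKM in treated parental cells, against 122.8 and 171.8 RPKM in untreated parental cells. The sums of the treated groups thus overlapped and all lay above those of the untreated groups.

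**Figure D3:**
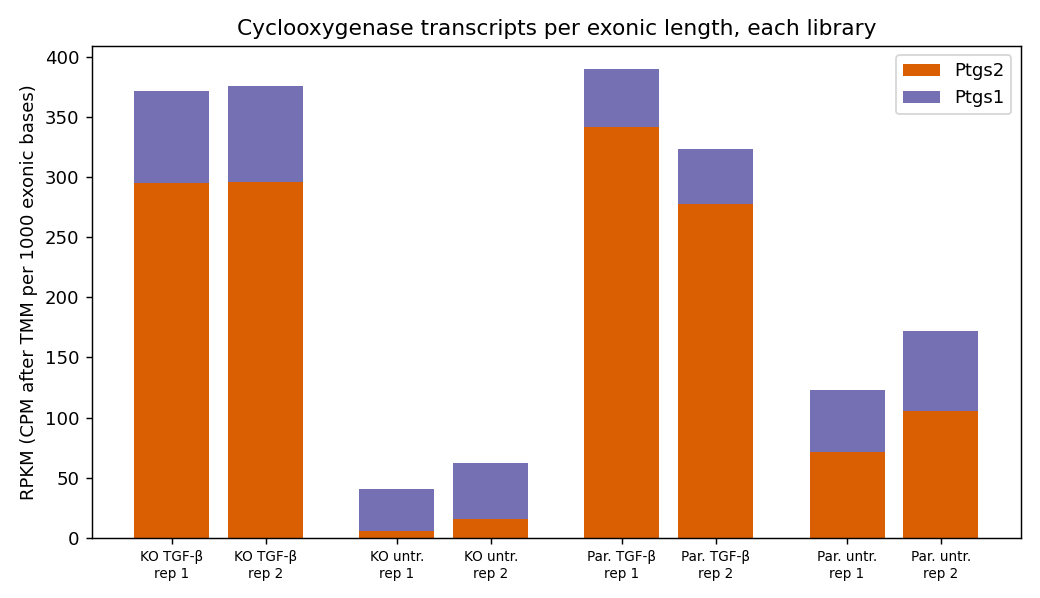
Stacked RPKM of Ptgs2 and Ptgs1 in each of the 8 libraries, treated left of untreated and knockout left of parental cells. The sum is 323.6 to 389.5 RPKM in treated libraries, and the Ptgs2 part is smallest in the untreated knockout libraries, at 13.9% and 24.5%.

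The prostaglandin E synthase genes moved little or were below detection. Ptges encodes the inducible microsomal synthase (ENSMUSG00000050737, chromosome 2, 30889471 to 30929863) and held 10 counts over all 8 libraries. Knockout cells had 2 and 3 counts with TGF-β, against 0 and 1 count without it, while parental cells had 2 and 1 counts with TGF-β, against 0 and 1 count without it. A difference is not detectable at this depth.

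Ptges2 encodes a Golgi-associated synthase (ENSMUSG00000026820, chromosome 2, 32395896 to 32405772). It stood at 22.3 and 26.6 CPM in treated knockout cells, against 26.6 and 25.7 CPM in untreated knockout cells. Parental cells had 17.3 and 17.7 CPM with TGF-β, against 24.1 and 22.3 CPM untreated, so that treated parental cells were below every other group. It fell with TGF-β in parental cells (log2 fold change -0.41, standard error 0.12, adjusted p = 0.0196) and was higher in knockout than in parental cells with TGF-β (0.48, standard error 0.12, adjusted p = 0.0191). Each of these calls was lost without 1 of 3 libraries: the first without either treated parental library or untreated parental replicate 1 (adjusted p = 0.0806 to 0.11), the second without either treated parental library or treated knockout replicate 2 (adjusted p = 0.103 to 0.14). The TGF-β change in knockout cells (-0.10, adjusted p = 0.549), the untreated difference (0.17, adjusted p = 0.411) and the difference between changes (0.31, adjusted p = 0.475) did not pass.

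Ptges3 encodes a cytosolic synthase that is also known as p23, a cochaperone of Hsp90 (ENSMUSG00000071072, chromosome 10, 128058954 to 128077272). Its level was the steadiest of the 6, at 112.4 and 104.4 CPM in treated and 101.9 and 99.99 CPM in untreated knockout cells, and at 91.4 and 94.3 CPM in treated and 100.2 and 100.3 CPM in untreated parental cells. Its fitted changes lay between -0.11 and 0.22 on the log2 scale and none passed, the lowest adjusted p being 0.0896 for knockout against parental cells with TGF-β. Per exonic length Ptges3 was the most abundant synthase transcript, at 41.2 to 50.7 RPKM, while Ptges2 lay at 3.42 to 5.26 RPKM. Of its 50-base stretches, 19.6% also occur in 2 processed pseudogenes, so its level is uncertain to that extent.

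Of the receptor genes in the set, Ptger4 was lower with TGF-β in both lines. It encodes EP4, a PGE2 receptor that raises cyclic AMP (ENSMUSG00000039942, chromosome 15, 5206661 to 5244187). It stood at 7.74 and 7.70 CPM in treated knockout cells, against 20.5 and 32.7 CPM in untreated knockout cells. In parental cells it stood at 9.01 and 8.94 CPM with TGF-β, against 25.4 and 36.0 CPM untreated. The treated libraries lay in a narrow band below all untreated ones. The log2 fold change of Ptger4 was -1.79 in knockout cells (standard error 0.23, adjusted p = 6.45e-05) and -1.77 in parental cells (standard error 0.23, adjusted p = 6.78e-05), and the difference of -0.014 between these changes (standard error 0.32) did not pass (adjusted p = 0.998). Knockout against parental cells did not pass with TGF-β (-0.22, adjusted p = 0.609) or untreated (-0.20, adjusted p = 0.603). With TGF-β the libraries of the lines did not overlap, as for 61.3% of all tested genes, and both knockout libraries were lower. The fit shares 1 estimate of the spread over the 4 groups. Replicates of Ptger4 lay 1.00-fold and 1.01-fold apart in treated, but 1.59-fold and 1.42-fold apart in untreated knockout and parental cells.

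Exons of genes on the opposite strand, Ttc33 and Gm15937, cover 16.5% of the exonic length of Ptger4, and whether the counting used strand is not given in the sources used here. Ttc33 itself changed by 0.33 with TGF-β in knockout cells (adjusted p = 0.0146) and by 0.15 in parental cells (adjusted p = 0.246). Gm15937, which holds 13.8% of the 50-base stretches of Ptger4, had 13 counts in all libraries.

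Ptger2 encodes EP2, the other cyclic AMP-raising receptor (ENSMUSG00000037759, chromosome 14, 44988195 to 45003820), and had 0 counts in all 8 libraries. The limit that 0 counts allow, 3 counts over the 2 libraries of a group, is 0.0792 CPM in treated and 0.0719 CPM in untreated knockout cells, and 0.0824 CPM in treated and 0.0834 CPM in untreated parental cells. The other prostanoid receptor genes were also low. Ptger1, which encodes EP1, held 123 counts in all and none of its changes passed, with fitted values from -0.54 to 0.16 on the log2 scale. Ptger3, Ptgdr, Ptgdr2 and Ptgir each held 1 count over all libraries, Tbxa2r 6 and Ptgfr 0. In each library Ptger4 therefore held more counts than any other receptor gene listed for a prostanoid.

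The 2 breakdown genes were below detection. Hpgd encodes the dehydrogenase that inactivates prostaglandins (ENSMUSG00000031613, chromosome 8, 56294585 to 56321043), and it had 0 counts in all 8 libraries, with the same limits as Ptger2. Ptgr1 encodes a reductase of the next step (ENSMUSG00000028378, chromosome 4, 58965439 to 58987119). Knockout cells had 1 and 0 counts with TGF-β, against 4 and 8 without it, while parental cells had 0 and 0 counts with TGF-β, against 7 and 7 without it. The counts were lower with TGF-β in both lines but too few to pass the filter, and no fold is given. In the fit with no filter on low counts Ptgr1 was called lower in knockout (adjusted p = 0.0341) and in parental cells (adjusted p = 0.000942). Ptgr2, which encodes a related reductase, held 4527 counts and its fitted TGF-β changes were -0.00072 in knockout cells (adjusted p = 0.997) and 0.013 in parental cells (adjusted p = 0.936).

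Counted over the set, 4 of the 6 tested members were called with TGF-β in knockout cells, 3 higher and 1 lower, against 41.4% of all tested genes, with 20.9% higher and 20.6% lower. In parental cells 4 were called, 2 in each direction, against 42.5% of all tested genes, with 21.3% higher and 21.2% lower. For knockout against parental cells 2 were called with TGF-β (Ptgs1 and Ptges2, both higher; background 17.9%, 6.82% higher) and 2 untreated (Ptgs1 and Ptgs2, both lower; background 13.7%, 8.94% lower). The difference between TGF-β changes was called for 2, Ptgs1 and Ptgs2, both higher, against 2.4% of all tested genes and 1.25% in that direction. The libraries of the compared groups did not overlap for 5 members with TGF-β in knockout cells (68.8% of all tested genes), 6 in parental cells (72.1%), 5 for knockout against parental cells with TGF-β (61.3%) and 3 untreated (50.7%). With 6 tested members these shares describe the set and test nothing about it.

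Genes with the most similar pattern over the 8 libraries were sought among 9326 genes by the root mean square difference of centred log2 CPM. For Ptgs2 they were Timp1 (0.689), a metalloproteinase inhibitor gene, Adam8 (0.756), a surface protease gene, and Cyp1b1 (0.778), a cytochrome P450 gene, where the median over all genes searched was 2.09. For Pla2g4a they were Gm14005 (0.19), the hyaluronan receptor gene Cd44 (0.201) and the kinase gene Ptk2b (0.205), with a median of 0.864. For Ptgs1 they were Igsf8, Sdc1 (both 0.174) and Vegfa (0.178), with a median of 0.442. For Ptger4 they were the sterol regulator gene Insig1 (0.144), the protease inhibitor gene Spint2 (0.159) and Cd82 (0.171), with a median of 0.917. The genes nearest to Ptges2 (Slc25a11, Hmces and Dera) and Ptges3 (Mon2, Nus1 and Pmpca) lay within 0.0632 and 0.0438. A small distance does not mean equal changes. With TGF-β Timp1 changed by 3.67 in knockout and 1.68 in parental cells on the log2 scale, and Adam8 by 3.66 and 2.10. Cyp1b1 changed by 3.03 and 2.87, and was at -1.34 for knockout against parental cells with TGF-β.

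Further prostanoid and eicosanoid genes changed in both directions with TGF-β. Of 74 listed, 71 were matched and 39 tested. In knockout cells 25 were called (64.1%, against 41.4% of all tested genes), 10 higher and 15 lower, with a median log2 fold change of -0.36 over the 39. In parental cells 27 were called (69.2%, against 42.5%), 9 higher and 18 lower, with a median of -0.39. The excess of lower calls in knockout cells was not kept without treated knockout replicate 1. That fit leaves 1 library in the group and called fewer genes over all genes as well. Whether the direction of the changes depends on that library was not tested. The median over all tested genes was -0.00023 in knockout and 0.008 in parental cells. The synthases of prostaglandin D2 were lower: Hpgds, the hematopoietic form, averaged 3.62 ± 0.834 CPM in treated and 215.9 ± 21.7 CPM in untreated knockout cells (SD, n = 2 each) and fell (log2 fold change -5.90, standard error 0.17, adjusted p = 8.24e-10). In parental cells it averaged 2.81 ± 0.828 CPM with TGF-β and 178.4 ± 5.39 CPM untreated and fell likewise (log2 fold change -5.997, standard error 0.18, adjusted p = 1.11e-09). Ptgds, the lipocalin form, fell as well, with log2 fold changes of -3.20 in knockout and -2.28 in parental cells.

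Several other genes of the prostanoid and eicosanoid list also moved with TGF-β. Akr1b3, an aldose reductase with prostaglandin F synthase activity, rose by 1.73 on the log2 scale in both lines. The monoglyceride lipase gene Mgll, whose enzyme can supply arachidonic acid, held 323 counts in treated and 1 count in untreated knockout cells, and 584 counts in treated and 5 counts in untreated parental cells. Acsl4, which activates arachidonic acid for membrane lipids, was lower, at -1.88 in knockout and -1.83 in parental cells. The prostaglandin transporter gene Slco2a1 was lower too, at -1.11 in knockout and -0.92 in parental cells, as was the export pump gene Abcc4, at -1.12 in knockout and -1.19 in parental cells. Faah, which hydrolyses fatty acid amides, stood at -1.77 in knockout and -2.09 in parental cells, and Pla2g7, which inactivates platelet-activating factor, at -2.04 in knockout and -2.14 in parental cells. Alox5ap, which assists leukotriene synthesis, rose by 3.71 in knockout and 2.43 in parental cells, the second value being 3.04 without untreated parental replicate 2, while the lipoxygenase gene Alox5 held 11 counts in all.

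**Figure D4:**
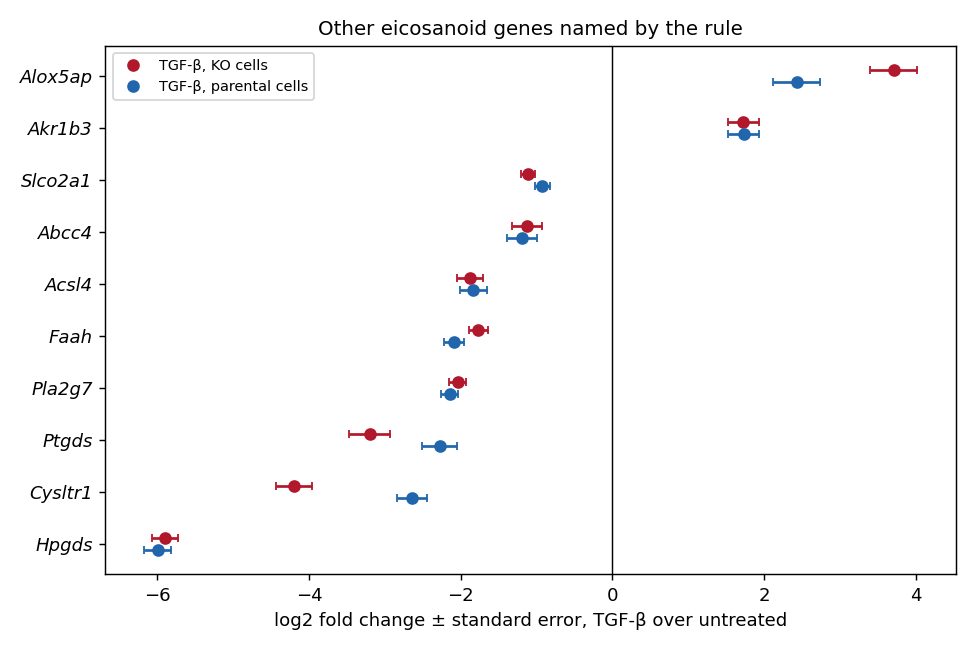
Log2 fold changes with TGF-β (points) and standard errors (bars) of 10 further eicosanoid genes in knockout and parental cells. Hpgds lies farthest to the left, at -5.90 and -5.997, and Alox5ap and Akr1b3 lie to the right of 0 in both lines.

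Between the lines, 11 of the 39 were called with TGF-β, 6 higher and 5 lower in knockout cells (28.2%, against 17.9% of all tested genes). Untreated, 6 were called, 2 higher and 4 lower, a share of 15.4% that is near the 13.7% of all tested genes. With treated parental replicate 1, treated parental replicate 2, treated knockout replicate 1 or treated knockout replicate 2 left out, the 6 higher became 2, 3, 2 and 3. The 4 lower untreated became 1 without untreated knockout replicate 1 and 2 without untreated parental replicate 2. Cysltr1, a leukotriene receptor gene, averaged 1.31 ± 0.289 CPM in treated knockout and 5.02 ± 1.25 CPM in treated parental cells (log2 fold change -1.91, adjusted p = 0.000673). Ptgds was lower in treated knockout than in treated parental cells as well (-1.27, adjusted p = 0.024). That call was lost in DESeq2 (adjusted p = 0.0924) and without any 1 of the 4 treated libraries (adjusted p = 0.0913 to 0.12).

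Of 37 genes of cyclic AMP and EP receptor signalling, 29 were tested. With TGF-β 20 were called in knockout cells (69%, against 41.4% of all tested genes), 10 in each direction, and 17 in parental cells (58.6%, against 42.5%), 7 higher and 10 lower. The adenylyl cyclase gene Adcy7 averaged 35.4 ± 5.55 CPM in treated and 0.262 ± 0.108 CPM in untreated knockout cells and rose by 7.05 on the log2 scale. In parental cells it rose by 7.17, and by 7.88 without untreated parental replicate 1. Adcy6, a more abundant adenylyl cyclase gene, went the other way. It averaged 103.6 CPM in treated and 140.6 CPM in untreated knockout cells, and 103.5 CPM in treated and 139.1 CPM in untreated parental cells. The phosphodiesterase gene Pde4d, which breaks cyclic AMP down, rose by 2.67 in knockout and 1.90 in parental cells. The scaffold gene Akap12 had log2 fold changes of -1.67 in knockout and -1.35 in parental cells. The cyclic AMP-gated exchange factor gene Rapgef3 stood at -2.35 in knockout and -2.77 in parental cells, and the chemokine gene Cxcl1 at -2.26 in knockout and -1.37 in parental cells. The arrestin gene Arrb1 fell in both lines, with log2 fold changes of -0.87 in knockout (adjusted p = 0.000214) and -1.19 in parental cells (adjusted p = 1.71e-05).

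Untreated knockout cells had 11 of these 29 genes called against untreated parental cells, all lower (37.9%, against 13.7% of all tested genes called and 8.94% lower), with a median log2 fold change of -0.35 over the list. The count was 5 with only the untreated libraries in the fit, 6 without untreated knockout replicate 1, 7 without untreated knockout replicate 2 and 7 without the genes of chromosomes 3, 8, 15 and X. Chromosome 8, which holds the listed genes Adcy7, Prkaca and Crtc1, was lower as a whole in knockout cells. The median log2 fold change of its tested genes was -0.465 untreated and -0.47 with TGF-β. Over all tested genes the medians were 1.98e-05 and 0.00607. Prkacb and Crtc2, on chromosome 3, averaged 88.8 and 29.8 CPM in untreated knockout and 115.2 and 42.3 CPM in untreated parental cells. Adcy6, Rapgef3 and Nr4a1, on chromosome 15, were not lower on average in untreated knockout cells. Untreated, Adcy7 held only 11 counts in knockout and 14 in parental cells. The part of the chromosome 8 shift in the calls, untreated or with TGF-β, was not tested, nor was that of the other chromosomes left out. The adenylyl cyclase gene Adcy9, on chromosome 16, was lower in knockout cells untreated (-2.27, adjusted p = 0.0002) and with TGF-β (-1.62, adjusted p = 0.000823). Pde4b was lower untreated (-1.71, adjusted p = 0.019), but at -0.90 without untreated parental replicate 1 (adjusted p = 0.198). With TGF-β 11 were called (37.9%, against 17.9% of all tested genes), 9 lower and 2 higher (1 higher without any 1 of the 4 treated libraries), including Cxcl1 (-1.76, adjusted p = 0.000144). Areg, an EGF receptor ligand gene, rose with TGF-β in knockout cells by 2.31 (adjusted p = 1.38e-05), and by 2.91 without untreated knockout replicate 2.

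Markers of other cell types changed in part alongside these genes. The 5 fibroblast markers summed to 3.71 to 4.7 CPM in treated and 0.0966 to 0.139 CPM in untreated knockout libraries. In parental libraries they summed to 3.39 to 3.93 CPM treated and 0.105 to 0.117 CPM untreated. The higher sum in treated libraries came from Pdgfra and Col1a2, while Dcn, Lum and Fap held 1, 2 and 1 counts over all 8 libraries. The 4 endothelial markers, chiefly Cdh5, summed to 6.71 to 8.24 CPM in treated and 0.51 to 0.821 CPM in untreated knockout libraries, and to 76.5 CPM in both treated and 1.29 to 1.58 CPM in untreated parental libraries. The 8 leukocyte markers summed to 17.6 to 19 CPM in treated and 32.6 to 33.2 CPM in untreated knockout libraries and to 28.4 to 30.9 CPM in treated and 32.4 to 32.7 CPM in untreated parental libraries, with Adgre1 and Cd3e at 0 counts in all. The lower sum in treated libraries came from Csf1r, which averaged 6.86 CPM in treated and 30.3 CPM in untreated knockout cells, and 22.3 CPM in treated and 30.9 CPM in untreated parental cells. Cd68 ran the other way, at 10.8 CPM in treated and 2.33 CPM in untreated knockout cells, and 6.69 CPM in treated and 1.47 CPM in untreated parental cells. Mast cell and adipocyte markers each summed to at most 0.222 CPM. Hpgds, which mast cells express strongly, was thus measured where the 4 mast cell markers were near 0. The part of the fibroblast, endothelial and leukocyte markers in the results was not tested.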

How the data were processed

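Polyadenylated RNA of 8 libraries was counted per gene. Per the submitters' processing notes, STAR 2.7.1a, featureCounts 1.6.2 and DESeq2 1.26.0 were used with the builds GRCm38 and mm10. The deposited files hold raw whole-number counts for 55450 identifiers, 1 file per library, of which 30946 had a count. Neither the annotation release nor the strandedness of counting is given in the sources used here. A deposited table of normalized values was not used.

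The filter was filterByExpr of edgeR with the 4 groups and a minimum count of 10, and 14641 genes with 99.9% of the counts passed. A gene that failed is called below detection. Library totals were scaled by TMM, and 1 quasi-likelihood fit over all 8 libraries (edgeR 4.0.16, R 4.3.3, 1 mean per group, 4 residual degrees of freedom) gave 5 contrasts. P-values were adjusted by Benjamini-Hochberg over all tested genes, and an adjusted p under 0.05 is a call. Standard errors were derived from the F statistic. The fit was tested on simulated counts first. Alternatives were DESeq2 size factors, upper quartile scaling, no filter, DESeq2 1.42.0, only the groups compared, the replicate block, a fit without genes of chromosomes 3, 8, 15 and X, and leaving out each library. A left-out library leaves a lone sample that is assumed to vary like the other groups. The replicates of each group differed beyond sampling noise, at 4.3 to 16.8 chi-square per degree of freedom.

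Gene positions and exonic lengths came from the GENCODE annotation of GRCm38. The members, the lists and the tests were chosen with earlier results of these data known. The text names all members, and listed genes with a mean log2 CPM of 1 or more, a call and an absolute log2 fold change of at least 1 between 2 groups, up to 10 eicosanoid and 6 cyclic AMP genes per contrast by adjusted p. It also names the 3 most similar genes per member. Other genes named were chosen after their values were seen. Limits for 0 counts (3 counts) cover counting error only.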

Additional observations from a re-analysis of the deposited data

Results flagged for a closer look

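The change with TGF-β differed between the lines, by a test of the difference itself, for 4 genes of the set or of the named list genes. For Ptgs2 the change in knockout cells exceeded that in parental cells by 3.01 on the log2 scale (adjusted p = 0.00732 in edgeR's quasi-likelihood test), and the 4 treated libraries stood between 1271 and 1565 CPM. For Ptgs1 the difference was 1.25 (adjusted p = 0.00901), with a rise in knockout cells and a fitted change of -0.32 in parental cells that did not pass. For Cysltr1 it was -1.55 (adjusted p = 0.031), a larger fall in knockout than in parental cells (-4.20 and -2.65), and for Areg it was 1.69 (adjusted p = 0.0248), with changes of 2.31 in knockout and 0.61 in parental cells. The Areg call was lost without any 1 of the 4 treated libraries (adjusted p = 0.0702 to 0.148). The Cysltr1 call was lost without treated parental replicate 2, treated knockout replicate 1 or treated knockout replicate 2 (adjusted p = 0.0905 to 0.206). The Ptgs1 difference was 1.05 to 1.47 over the left-out libraries, and its call was lost without treated knockout replicate 2. Without untreated knockout replicate 2 the Areg difference was 2.30.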

How the results depend on the processing

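For the 6 tested members, 402 recomputed results kept their direction and their side of the threshold, 14 lost a call, 9 gained one (6 for Ptgs1 with TGF-β in parental cells and 3 for Pla2g4a) and 14 changed sign, none of them a called value. The TGF-β calls of Ptgs2, Pla2g4a and Ptger4 in both lines, and the Ptgs2 calls untreated and for the difference, held in every alternative in which the gene was tested. With no filter, knockout minus parental Ptges3 untreated was -0.0046 and the Ptger4 difference 0.0068 (0.0074 in DESeq2); without the genes of chromosomes 3, 8, 15 and X, that Ptges3 value was -0.026. Leaving out each library gave -0.21 to 0.087 for Ptgs2 in knockout against parental cells with TGF-β, -0.23 to 0.026 for Ptges2 with TGF-β in knockout cells, and -0.31 to 0.36 for the Ptger4 difference. For untreated knockout against parental cells it gave -0.0053 to 0.023 for Ptges3, -0.70 to 0.050 for Pla2g4a and -0.58 to 0.090 for Ptger4. Members called in knockout against parental cells became 1 untreated with only the groups compared, and 1 to 2 untreated, with TGF-β and for the difference over the left-out libraries. Genes called over all genes were 2000 untreated, 1111 with only the groups compared and 1008 without those chromosomes. With TGF-β they were 2618, 1529 without those chromosomes and 1188 to 2922 over left-out libraries. For the difference they were 352, 855 with no filter and 120 to 421 over left-out libraries. Of the results of named list genes, 572 held and 16 lost a call. The cause of these changes was not tested. Depth limits Ptges, Ptgr1, Hpgd and Ptger2 to counts or upper limits.

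With the replicate number as a block, the difference of changes was called for 679 genes, and the only member call that moved was that of Ptgs1, gained with TGF-β in parental cells. The numbers do not pair the samples by the labels, and replicate differences of 2 groups correlated at 0.0218 to 0.308 across genes, highest between the untreated groups.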

Other observations

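Ptgs2 and Pla2g4a start 138741 bases apart on chromosome 1 and point away from each other. Of tested genes, 9 start within 1000000 bases of Ptgs2, Pla2g4a included, which was called higher in both lines. With TGF-β 3 of the 9 were called higher and 1 lower in knockout cells (median log2 fold change 0.705). Of all tested genes 20.9% were called higher and 20.6% lower there. In parental cells 6 were called higher and 1 lower (median 1.19), against 21.3% and 21.2% of all tested genes. The median over the tested genes of chromosome 1 was 0.051 in knockout and 0.037 in parental cells. Untreated, the 9 genes had a median of -0.302 for knockout against parental cells.

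Ptgs2os, a noncoding gene on the opposite strand that starts 68 bases from Ptgs2 and shares no exonic base with it, was chosen after its values were seen. Knockout cells had 57 and 44 counts with TGF-β, against 2 and 7 without it, while parental cells had 56 and 58 with TGF-β, against 11 and 7 without it. It rose by 3.61 on the log2 scale in knockout cells (standard error 0.42, adjusted p = 3.05e-05 in edgeR) and by 2.67 in parental cells (standard error 0.36, adjusted p = 0.000116). For knockout against parental cells untreated its value was -1.20 (standard error 0.57), which did not pass (adjusted p = 0.206). Ptgs2os2, which starts 64917 bases from Ptgs2, did not share this pattern. With TGF-β it rose by 1.75 in parental cells (adjusted p = 0.00867) and changed by -0.153 in knockout cells (adjusted p = 0.899). In treated knockout against treated parental cells it was lower (-3.39, adjusted p = 0.00151).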
